A study of Homo sapiens with 4 samples.

Results

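The genes described here encode enzymes that make heme and enzymes that reduce biliverdin, the pigment left when heme is broken down. They are *ALAS1*, *ALAD*, *UROS*, *UROD*, *CPOX*, *PPOX* and *FECH* for heme synthesis and *BLVRA* and *BLVRB* for the biliverdin reductases. A probe belonged to the group when the transcript accession given for it in the scanner output is a transcript of one of these 9 genes. This gave 13 probes of 41000, and 9 genes of the 17721 genes that could be named on the array. *ALAS1*, *ALAD*, *PPOX* and *FECH* have 2 probes each, and the other 5 genes have 1. Each of the 13 probes is 1 spot on an array. All 13 were well above background on all 4 arrays, and none of their spots was marked as an outlier.

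The cells were Nalm-6, a human pre-B cell line, grown without an oxidative stress inducer. Arp5 and Arp8 are actin-related proteins of the INO80 chromatin remodeling complex. There was 1 single-color array for wild-type cells, 1 for Arp5 KO cells, 1 for Arp8 KO cells and 1 labelled as Arp8 overexpression, here the labelled OE array. In the KO cells the *ARP5* or *ARP8* locus had been disrupted by homologous recombination. The labelled overexpression came from a Tet-Off construct put into Arp8 KO cells, and the labels do not state whether the inducing or repressing condition applied at harvest. Each genotype is therefore represented by 1 cell line and 1 array, the number of arrays limits the precision, no difference has a replicate check, and no p-value is given. All 4 arrays shared 1 slide and 1 scan. Of 43376 spots on each array, 31188 stood well above background in the wild type, 31420 in Arp5 KO, 30394 in Arp8 KO and 30803 on the labelled OE array.

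Heme is built in steps that begin and end in mitochondria and pass through the cytosol in between. The first enzyme condenses glycine with succinyl-CoA, later enzymes assemble and trim a porphyrin ring, and the last one places iron in it. Heme represses the housekeeping form of the first enzyme, so that the free heme pool holds back its own synthesis. Heme oxygenase opens the ring to biliverdin, and the biliverdin reductases turn this into bilirubin. All cells with a respiratory chain need this route, and red cell precursors run a specialized form of it. The study used hemin to induce *HMOX1*, the gene of heme oxygenase-1. The arrays without hemin give RNA levels for the enzymes around that step, not enzyme amounts.

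The labels were examined first on the targeted genes. *ACTR5*, the gene for Arp5, had a processed signal of 1909 units in the wild type, 65.3 in Arp5 KO, 1849 in Arp8 KO and 2088 on the labelled OE array. *ACTR8*, the gene for Arp8, has 2 probes. A_23_P80694 gave 1092 units in the wild type, 993 in Arp5 KO, 785 in Arp8 KO and 679 on the labelled OE array, and A_24_P131697 gave 2149, 2233, 1654 and 1857 units in the same order. The *ACTR8* signal was thus not higher on the labelled OE array than in wild-type cells. Where these probes lie relative to the disrupted and the introduced sequence is not known here, so they check neither Arp8 label.

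The labelled cell type was examined on marker genes. All 16 probes of 11 B-lineage genes were well above background on all 4 arrays, and the summed signal was 593945 units in the wild type, 590062 in Arp5 KO, 569412 in Arp8 KO and 583600 on the labelled OE array. The sums hide differences of single probes, with log2 ratios to wild-type cells such as -0.56 for *CD79A* in Arp5 KO, -0.61 for *VPREB1* in Arp8 KO, and -0.84 for 1 of 3 *IGLL1* probes and 0.55 for *CD79B* on the labelled OE array. Erythroid markers matter for heme genes because red cell precursors make heme in bulk. Of 21 erythroid probes, 8 stood well above background in the wild type, 8 in Arp5 KO, 7 in Arp8 KO and 8 on the labelled OE array, with summed signals of 338, 362, 357 and 357 units. The 6 that were so on all 4 arrays read *HBA1*, *HBA2*, *HBD*, *SLC4A1* and *ALAS2*, while no probe of *HBB*, *HBG1*, *GYPB*, *GATA1* or *EPB42* was on any array. *HBA2* probe A_23_P26457 had log2 ratios to wild-type cells of 0.58 in Arp5 KO, 0.12 in Arp8 KO and -0.44 on the labelled OE array. The other *HBA2* probe had -0.06, 0.10 and 0.18. Of 5 T-cell probes 2 were well above background on every array, with summed signals of 70.7, 75.1, 69.1 and 68.4 units in the order of the erythroid sums. Of 5 myeloid probes 3 were, with 201, 195, 293 and 291 units. *LYZ* had 55.4 units in the wild type, 46.3 in Arp5 KO, 143 in Arp8 KO and 139.7 on the labelled OE array. The higher sum on the last 2 arrays is mostly that of *LYZ*, since *CD14* had 119.5, 124, 123 and 110.0 units. *CSF1R* was dim but also higher on these 2 arrays, at 11.1, 11.0, 16.2 and 25.3 units. On the log2 scale *CSF1R* stood 0.53 above the wild type in Arp8 KO and 1.17 above it on the labelled OE array, the latter beyond 2-fold. *MPO* and *ELANE* were not well above background. Whether the higher myeloid signal has a part in the heme gene values was not tested.

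None of the 13 probes of heme synthesis and biliverdin reductase genes was beyond 2-fold in any comparison. The ratios to wild-type cells lay between -0.27 and 0.62 on the log2 scale in Arp5 KO cells, between -0.11 and 0.56 in Arp8 KO, and between -0.50 and 0.46 on the labelled OE array. These 3 comparisons share the wild-type array. Among all probes whose brighter array was well above background, 2.32% were beyond 2-fold in Arp5 KO, 3.56% in Arp8 KO and 4.24% on the labelled OE array, shares at which fewer than 1 of 13 probes would be called. The share was 1.86% for Arp8 KO cells over the labelled OE array and 3.15% for Arp5 KO over Arp8 KO cells, again with 0 of 13 in the heme and biliverdin genes. Levels here are the log2 processed signal relative to the 75th percentile of the array, and signals are given in the units of the scanner software.

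At 1.5-fold, 1 of the 13 probes was beyond the threshold in Arp5 KO over wild-type cells, the dim *FECH* probe A_32_P151933, where 8.89% of all probes were. That call was lost with median scaling, quantile normalization, the authors' table and normexp background correction, where the *FECH* ratio was 0.57, 0.56, 0.58 and 0.32. In Arp8 KO over wild-type cells it was 0 of 13 against 12.3% of all probes, and 1 with median scaling, where *ALAD* probe A_23_P217114 reached 0.60. On the labelled OE array it was 0 of 13 against 13.3%. It was 0 of 13 against 8.46% for Arp8 KO cells over the labelled OE array and 0 of 13 against 11.0% for Arp5 KO over Arp8 KO cells. These counts are too small to set the heme and biliverdin genes apart from the array as a whole.

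The median over the 13 probes was above 0 in each comparison with wild-type cells. It was 0.18 in Arp5 KO, 0.22 in Arp8 KO and 0.17 on the labelled OE array, beside 0.04, 0.01 and 0.01 over all probes compared. This distance from the other probes depends on the filter, since without a filter on dim probes the medians over all probes were -0.08, 0.15 and 0.15, and the heme and biliverdin genes then stood only 0.06 above them in Arp8 KO cells and 0.03 on the labelled OE array, but 0.26 in Arp5 KO cells. Of the 13 probes, 10 were above 0 in Arp5 KO cells, where 56.4% of all probes were. In Arp8 KO cells 10 were above 0 beside 51.1% of all probes, and on the labelled OE array 11 were beside 51.5%. The count moved between 9 and 10 in Arp5 KO cells, between 8 and 11 in Arp8 KO cells and between 11 and 12 on the labelled OE array when the scaling, the background correction or the treatment of dim probes was changed. The wild-type array enters each of these ratios, so that a low reading there would raise all of them together.

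**Figure D1:**
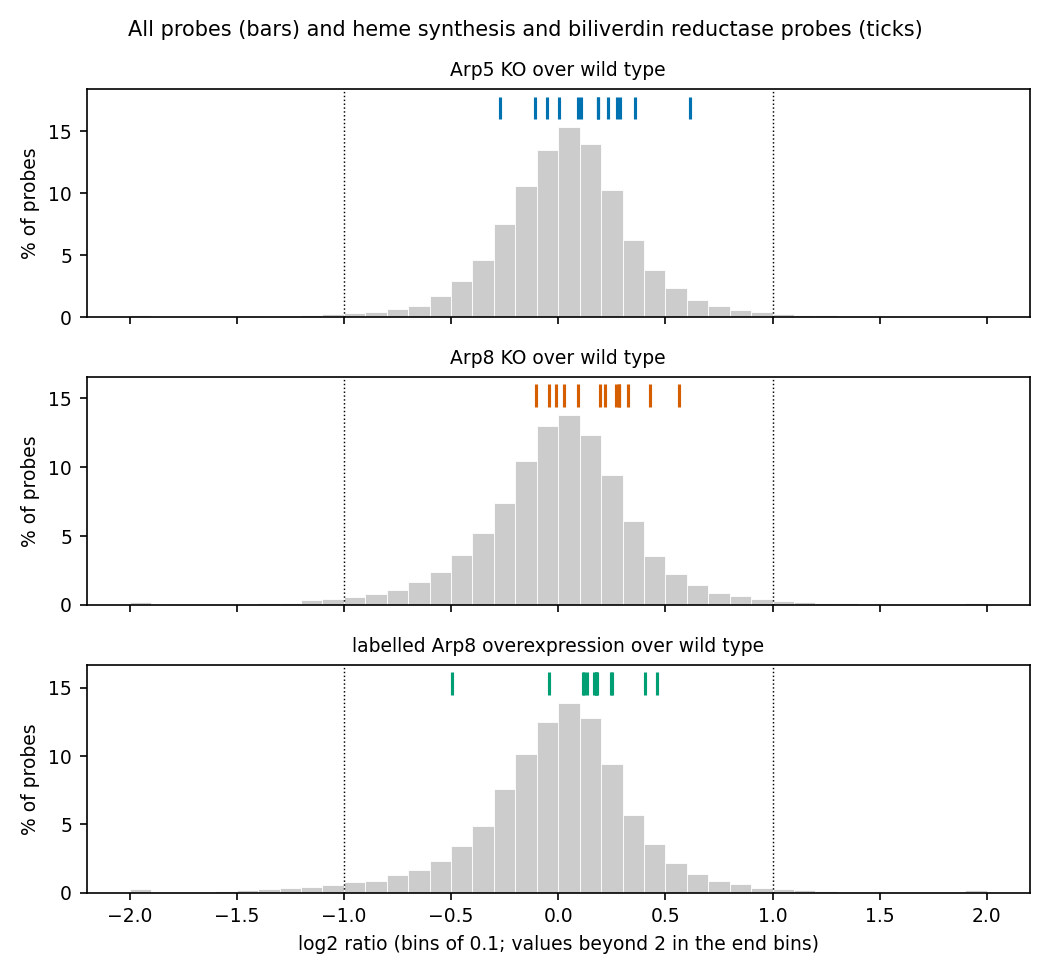
Distribution of log2 ratios to wild-type cells (horizontal axis, bins of 0.1) as a percentage of the probes well above background on both arrays (vertical axis), for Arp5 KO cells, Arp8 KO cells and the labelled OE array. Colored ticks mark the 13 heme synthesis and biliverdin reductase probes, which all lie inside the dotted 2-fold lines, with medians of 0.18, 0.22 and 0.17.

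2 measures of error were set beside each ratio. The spread of probes printed on at least 10 spots gave a median technical SD of a log2 ratio of 0.03 to 0.04 for the signals of 12 of the 13 probes and of 0.11 for the dim *FECH* probe. The scanner software's own error of a spot is wider and gave an error of 0.20 for a log2 ratio of these 12 probes and 0.21 to 0.22 for the dim *FECH* probe. Neither holds any variation between cultures. By the software error, 1 of the 13 ratios was outside its 95% interval around 0 in Arp5 KO over wild-type cells beside 16.4% of all probes, 2 in Arp8 KO cells beside 20.7% and 2 on the labelled OE array beside 21.4%. For Arp8 KO cells over the labelled OE array it was 0 beside 15.6%, and for Arp5 KO over Arp8 KO cells 1 beside 17.4%. The count for Arp5 KO over wild-type cells was 0 with normexp background correction, that for the labelled OE array lay between 1 and 3 under other settings, that for Arp8 KO cells over this array between 0 and 1 and that for Arp5 KO over Arp8 KO cells between 0 and 2, while that for Arp8 KO over wild-type cells stayed at 2.

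**Figure D2:**
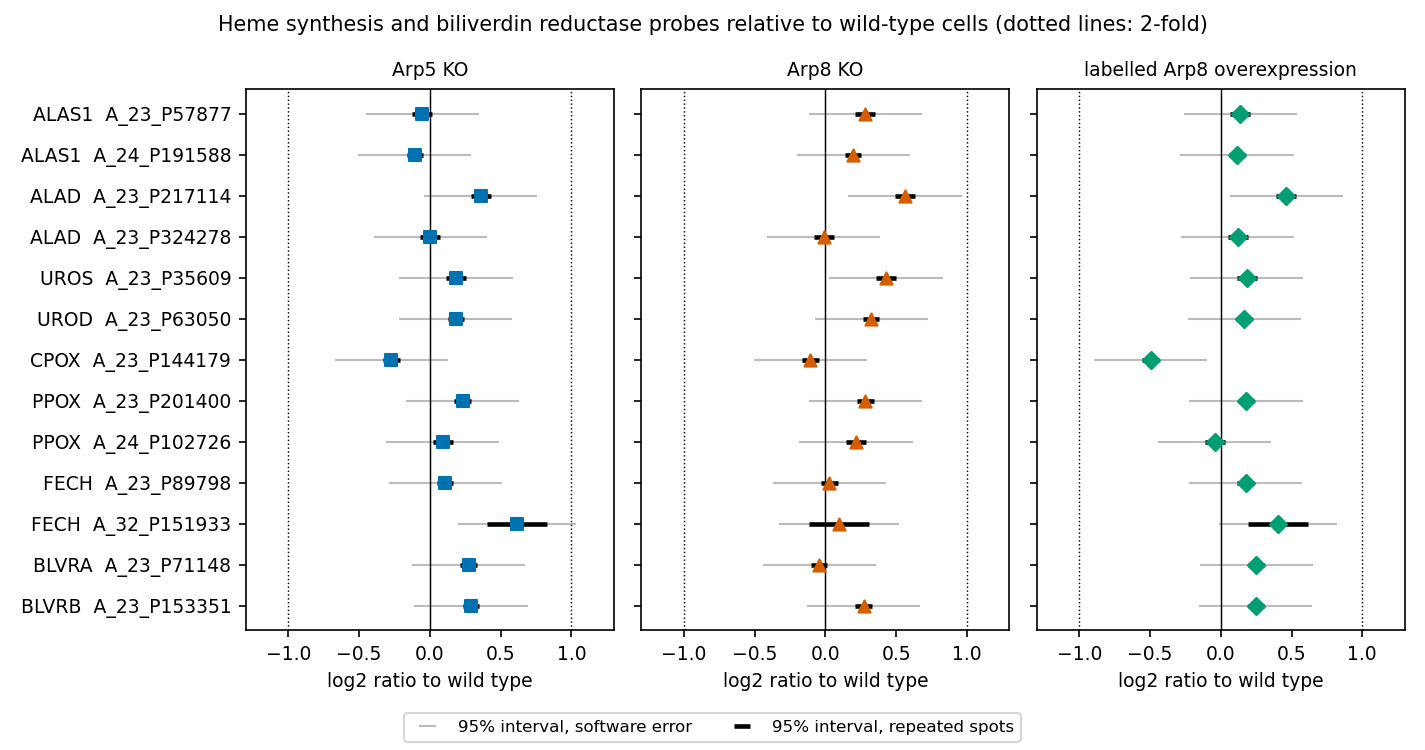
Log2 ratio to wild-type cells (horizontal axis) of each of the 13 probes (rows) in Arp5 KO cells, Arp8 KO cells and on the labelled OE array, 1 array each. Gray lines are 95% intervals from the software error and black lines 95% intervals from repeated spots. *ALAD* probe A_23_P217114 is highest in Arp8 KO cells at 0.56, the dim *FECH* probe is highest in Arp5 KO cells at 0.62, and *CPOX* is below 0 in all 3 panels.

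*ALAS1* encodes the housekeeping form of 5-aminolevulinate synthase, the first and rate-limiting enzyme of the route. Its probe A_24_P191588 gave 2590.5 units in the wild type, 2369 in Arp5 KO, 3004 in Arp8 KO and 2851 on the labelled OE array. Its probe A_23_P57877 had 694, 658, 855 and 775 units in the same order. Both probes were lowest in Arp5 KO cells and highest in Arp8 KO cells. The log2 ratios over the wild type were -0.11 and -0.05 in Arp5 KO, 0.20 and 0.28 in Arp8 KO, and 0.12 and 0.14 on the labelled OE array. These differences were larger than the repeated-spot error for A_24_P191588, except that the ratio of 0.12 on the labelled OE array was 0.02 and inside that error with normexp background correction. For both probes they were within the software error. Between the KO cell lines directly, Arp5 KO over Arp8 KO cells gave -0.30 and -0.34, the *ALAS1* probes being the 2 lowest of the 13 in that comparison. The 2 probes differed from each other by 0.09 or less in every comparison.

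Sequences around the transcription starts were searched for 4 short motifs, and the windows of members with a match are printed. The RefSeq promoter table for build GRCh38.p14 gives 250 bases before and 50 bases after a transcription start. It held windows for 8 of the 9 genes, and 10 windows in all because *ALAD* and *PPOX* have 2. The motifs were AGATAA, the letters bound by GATA factors, GCATGCGC, a core of the site of NRF1, TGACNNNGC, the antioxidant response element, and CACGTG, an E-box. Each was searched on both strands, matches may overlap, and capitals mark them. Among 35116 windows of 300 bases, 10.3% hold AGATAA, 3.05% hold GCATGCGC, 13.3% hold TGACNNNGC and 7.26% hold CACGTG. A match describes letters and shows no binding. The *ALAS1* window at chr3:52197833-52198132 on the plus strand has 2 overlapping matches to GCATGCGC, at positions 21 and 23 after the start.
ALAS1 window: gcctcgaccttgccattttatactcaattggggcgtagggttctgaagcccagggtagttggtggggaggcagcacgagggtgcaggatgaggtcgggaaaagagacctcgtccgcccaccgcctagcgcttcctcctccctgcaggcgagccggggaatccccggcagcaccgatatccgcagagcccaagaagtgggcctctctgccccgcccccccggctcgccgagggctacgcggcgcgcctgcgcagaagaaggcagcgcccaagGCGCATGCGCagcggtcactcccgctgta

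*ALAD* encodes 5-aminolevulinate dehydratase, the cytosolic enzyme that joins aminolevulinate molecules into porphobilinogen. Its probe A_23_P217114 had 973 units in the wild type, 1227 in Arp5 KO, 1454 in Arp8 KO and 1361 on the labelled OE array. Wild-type cells were lowest and Arp8 KO cells highest. The log2 ratios over the wild type were 0.36, 0.56 and 0.46, and the ratio in Arp8 KO cells was the highest of the 13 probes there, with 94.6% of all probes below it. The ratios in Arp8 KO cells and on the labelled OE array were outside the 95% interval of the software error, the second of them no longer with normexp background correction, where it was 0.39. The other probe of the gene, A_23_P324278, did not share this pattern. It had 1177 units in the wild type, 1161 in Arp5 KO, 1181 in Arp8 KO and 1299.5 on the labelled OE array, with ratios of 0.00, -0.01 and 0.12, and the sign of the first and the second changed between scalings. The *ALAD* probes carry the same accession and differed by 0.57 in the ratio of Arp8 KO to wild-type cells, by 0.36 in Arp5 KO cells and by 0.34 on the labelled OE array. The part of the transcript each probe reads is not known here. The difference found by A_23_P217114 is therefore a result for that probe and not for the *ALAD* gene.

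*UROS* encodes uroporphyrinogen synthase, which closes the porphyrin ring. Its probe A_23_P35609 had 1868 units in the wild type, 2089 in Arp5 KO, 2543 in Arp8 KO and 2154 on the labelled OE array. Arp8 KO cells stood above the other 3 arrays, and Arp5 KO cells and the labelled OE array were level after scaling. The log2 ratios over the wild type were 0.18 in Arp5 KO, 0.43 in Arp8 KO and 0.18 on the labelled OE array. The *UROS* ratio in Arp8 KO cells, an increase of 34.6%, was outside the 95% interval of the software error, with 90.6% of all probes below it. *UROS* has 1 probe, so this ratio has no second reading on the array.

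*UROD* encodes uroporphyrinogen decarboxylase, which trims the side chains of the ring in the cytosol. Its probe A_23_P63050 had 12079 units in the wild type, 13506 in Arp5 KO, 15294 in Arp8 KO and 13764 on the labelled OE array. The order of the arrays was that of *UROS*, with wild-type cells lowest and Arp8 KO cells highest. The log2 ratios were 0.18, 0.32 and 0.17, the last of them 0.07 with quantile normalization. All 3 exceeded the repeated-spot error and lay within the software error.

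*CPOX* encodes coproporphyrinogen oxidase, which acts between the mitochondrial membranes and hands its product on for the final steps. It was the only gene of the 9 whose probes were all below wild-type cells on each of the other 3 arrays. Probe A_23_P144179 had 3518 units in the wild type, 2869.7 in Arp5 KO, 3309 in Arp8 KO and 2534 on the labelled OE array. The log2 ratios over the wild type were -0.27 in Arp5 KO, -0.11 in Arp8 KO and -0.50 on the labelled OE array, and none changed sign under another scaling or background correction. The lowest of these *CPOX* ratios was outside the 95% interval of the software error, and 9.44% of all probes were below it. Arp8 KO cells over the labelled OE array gave 0.39, the highest of the 13 probes in that comparison. The *CPOX* window is printed because it holds 2 matches to AGATAA, both on the reverse strand as TTATCT, at positions -207 and -125 from the start. It lies at chr3:98593562-98593861 on the minus strand of GRCh38.p14.
CPOX window: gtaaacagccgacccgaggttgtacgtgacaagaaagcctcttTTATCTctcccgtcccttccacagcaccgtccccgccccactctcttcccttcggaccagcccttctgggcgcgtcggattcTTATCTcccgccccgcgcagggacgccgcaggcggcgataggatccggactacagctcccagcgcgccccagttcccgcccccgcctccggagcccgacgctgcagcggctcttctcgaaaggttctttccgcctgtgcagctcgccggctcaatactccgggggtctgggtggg

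*PPOX* encodes protoporphyrinogen oxidase of the inner mitochondrial membrane, which makes protoporphyrin. Its probe A_23_P201400 had 4274 units in the wild type, 4940.3 in Arp5 KO, 5259 in Arp8 KO and 4912 on the labelled OE array. Its probe A_24_P102726 had 774, 811, 910.1 and 763 units in the same order. Arp8 KO cells were highest for both *PPOX* probes. The log2 ratios in Arp5 KO cells were 0.23 and 0.09, and those in Arp8 KO cells were 0.28 and 0.22. On the labelled OE array the probes differed in sign, with 0.18 and -0.04, and the second of these turned to 0.01 with median scaling. All the *PPOX* ratios to wild-type cells were within the software error. Of its 2 windows, the one at chr1:161166396-161166695 on the plus strand of GRCh38.p14 has a match to AGATAA on the reverse strand at position -63, and is printed beside that of *CPOX* as the other member with these letters.
PPOX window: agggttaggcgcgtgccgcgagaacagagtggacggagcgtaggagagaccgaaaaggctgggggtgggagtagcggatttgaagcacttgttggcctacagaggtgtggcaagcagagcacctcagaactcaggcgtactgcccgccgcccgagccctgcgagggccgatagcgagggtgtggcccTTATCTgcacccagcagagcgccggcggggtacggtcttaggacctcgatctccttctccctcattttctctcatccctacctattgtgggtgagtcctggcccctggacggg

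*FECH* encodes ferrochelatase, the last enzyme, which inserts iron into protoporphyrin. Its probe A_23_P89798 had 2487 units in the wild type, 2638 in Arp5 KO, 2567 in Arp8 KO and 2853 on the labelled OE array. The 4 values were close together, with log2 ratios to wild-type cells of 0.11, 0.03 and 0.17. The ratio in Arp8 KO cells was 0.00 with normexp background correction. The other probe, A_32_P151933, was dim, with 48.7 units in the wild type, 73.5 in Arp5 KO, 52.6 in Arp8 KO and 65.5 on the labelled OE array. It was highest in Arp5 KO cells and lowest in wild-type cells. Its log2 ratios were 0.62 in Arp5 KO, 0.09 in Arp8 KO and 0.40 on the labelled OE array. The first is an increase of 53.2% and was the largest of the 13 probes in Arp5 KO cells and outside the 95% interval of the software error, but neither held with normexp background correction. There the *FECH* probe A_32_P151933 gave 0.32 in Arp5 KO, -0.02 in Arp8 KO and 0.12 on the labelled OE array. The probes carry the same accession and differed by 0.51 in Arp5 KO over wild-type cells. The size of the *FECH* difference in Arp5 KO cells is therefore a result for the dim probe. Probe A_23_P89798 also stood above wild-type cells there, by 0.11, within the software error. The *FECH* window at chr18:57586653-57586952 on the minus strand of GRCh38.p14 holds a match to TGACNNNGC on the reverse strand at position -38, and is shown as the only member window with these letters.
FECH window: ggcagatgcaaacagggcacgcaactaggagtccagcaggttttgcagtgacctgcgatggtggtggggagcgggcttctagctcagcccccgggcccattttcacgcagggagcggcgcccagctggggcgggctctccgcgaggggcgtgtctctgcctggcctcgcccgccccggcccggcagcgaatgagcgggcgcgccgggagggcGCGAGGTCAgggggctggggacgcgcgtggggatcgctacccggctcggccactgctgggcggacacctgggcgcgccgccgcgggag

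The windows of *ALAD*, *UROD*, *BLVRA* and *BLVRB* hold none of the 4 motifs in these letters, and no member window holds CACGTG.

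*BLVRA* encodes the main biliverdin reductase of adult cells. Its probe A_23_P71148 had 16661 units in the wild type, 19830.0 in Arp5 KO, 16357 in Arp8 KO and 20142 on the labelled OE array. The arrays fell into a lower pair, wild-type and Arp8 KO cells, and a higher pair, Arp5 KO cells and the labelled OE array. The log2 ratios over the wild type were 0.27 in Arp5 KO, -0.04 in Arp8 KO and 0.25 on the labelled OE array. Arp5 KO over Arp8 KO cells gave 0.32 and Arp8 KO cells over the labelled OE array gave -0.29. Each of these exceeded the repeated-spot error except the ratio of Arp8 KO to wild-type cells, which did so only in some settings, and none was outside the 95% interval of the software error.

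*BLVRB* encodes the reductase first known from fetal liver, which also reduces flavins. Its probe A_23_P153351 had 3788 units in the wild type, 4561 in Arp5 KO, 4623 in Arp8 KO and 4569 on the labelled OE array. The wild-type array was low and the other 3 were level with each other. The log2 ratios over the wild type were 0.29, 0.27 and 0.25, while Arp5 KO over Arp8 KO cells and Arp8 KO cells over the labelled OE array both gave 0.02. The value for Arp5 KO over Arp8 KO cells changed sign between settings, down to -0.06. That for Arp8 KO cells over the labelled OE array reached 0.09. All 3 *BLVRB* ratios to wild-type cells thus rest on the 1 wild-type reading. They also lay within the software error. In Arp8 KO cells *BLVRB* read above wild-type cells and *BLVRA* did not, both within that error, and a difference between these genes was not tested.

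**Figure D3:**
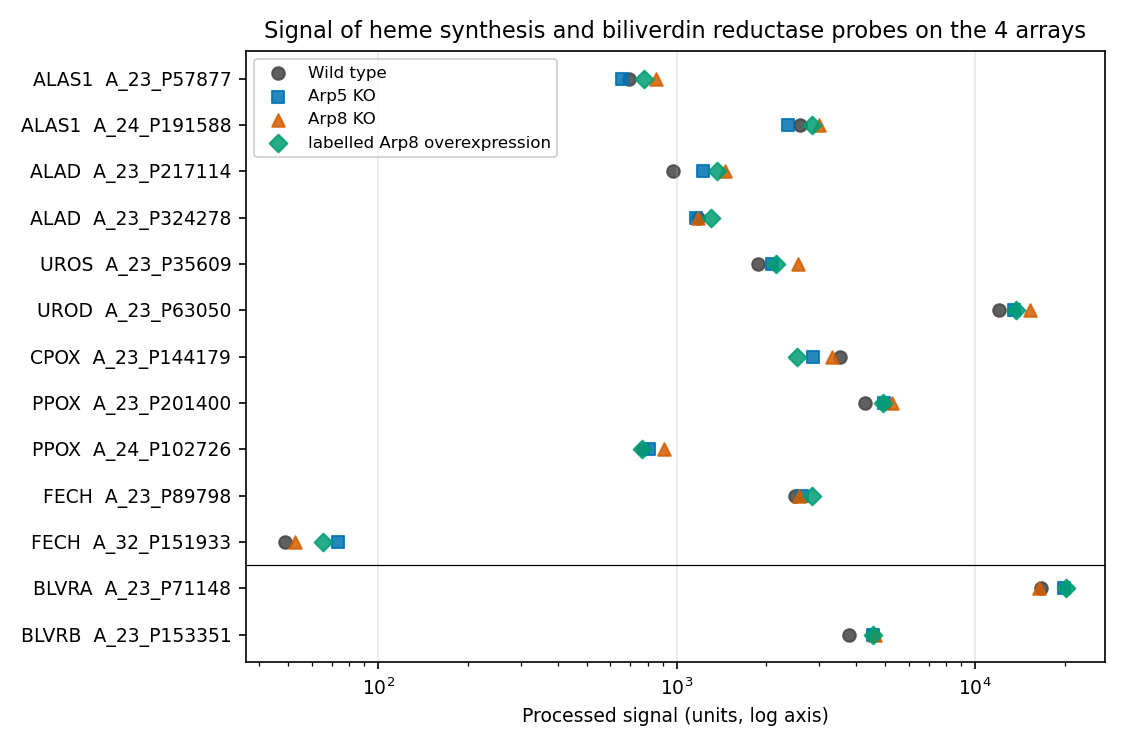
Processed signal in scanner units (horizontal log axis) of each of the 13 probes (rows) on each of the 4 arrays, 1 color per genotype label. Signals are compared along a row and not between probes. The dim *FECH* probe spans 48.7 to 73.5 units, the widest range of these signals on the log axis. The black line separates the heme synthesis genes from the biliverdin reductases.

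Across the 4 arrays the 13 probes had a range between 0.13 and 0.62 on the log2 scale, with a median of 0.32, beside a median of 0.38 over the 27999 probes well above background on all arrays. Neighbors in the order of the 4 arrays differed by at most 0.36. Of the 39 such steps between neighboring arrays, 24 were beyond the repeated-spot error, which rests on a median SD. Beyond the 95% interval of the software error were 0. By the wider error, adjacent levels of the heme and biliverdin genes cannot be told apart on these arrays.

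Arp8 KO cells were also compared with the labelled OE array. Since *ACTR8* was not higher on that array than in wild-type cells, the label and not a measured level defines it. The median over the 13 probes was 0.10, with 9 above 0, beside 0.01 and 50.9% over all probes. Without a filter on dim probes the values over all probes were 0.095 and 64.9%, so this distance depends on the filter. The range over the 13 probes was -0.31 for the dim *FECH* probe to 0.39 for *CPOX*. With normexp background correction the *FECH* value was -0.15 and *BLVRA* was lowest with -0.30, and *CPOX* was still highest with 0.30. *BLVRA* gave -0.29 without that correction, *UROS* 0.25 and *PPOX* probe A_24_P102726 0.26.

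Arp5 KO cells were compared with Arp8 KO cells to see where loss of the 2 proteins gave different levels. The median over the 13 probes was -0.13, with 5 above 0, beside 0.03 and 54.5% over all probes. Without a filter on dim probes the values over all probes were -0.093 and 39.4%, so this distance depends on the filter. Under other settings between 2 and 6 of the 13 were above 0, and the median of the 13 lay between -0.21 and -0.08. The 11 heme synthesis probes had a median of -0.14, with 3 above 0. The biliverdin reductases had 0.32 for *BLVRA* and 0.02 for *BLVRB*, the latter changing sign between settings. *ALAS1*, *UROS*, *UROD*, *CPOX* and *PPOX* were below 0 with all their probes, the value of -0.05 for *PPOX* probe A_23_P201400 turning to 0.02 with normexp background correction. The dim *FECH* probe, with 0.52, was outside the 95% interval of the software error, but not with quantile normalization, where it was 0.40, nor with normexp background correction, where it was 0.34. With median scaling *ALAS1* probe A_23_P57877 was also outside that interval, at -0.42.

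Other genes of heme and iron handling were examined from a list of 51 genes with 83 probes, of which 77 were well above background on all 4 arrays and 6 on none. Beyond 2-fold from wild-type cells were 2 of these 77 in Arp5 KO, 3 in Arp8 KO and 0 on the labelled OE array, beside 2.32%, 3.56% and 4.24% of all probes. The medians were 0.00, -0.10 and -0.06, beside the medians of 0.18, 0.22 and 0.17 of the synthesis and reductase probes. *ABCB6*, a porphyrin transporter, had ratios of 0.94 and 0.90 in Arp5 KO, 1.18 and 1.08 in Arp8 KO, and 0.72 and 0.77 on the labelled OE array, and the value of 1.08 was 0.95 with normexp background correction. *SLC48A1*, a heme transporter of the endosome and lysosome, had 1.18, 0.94 and 0.94.

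**Figure D4:**
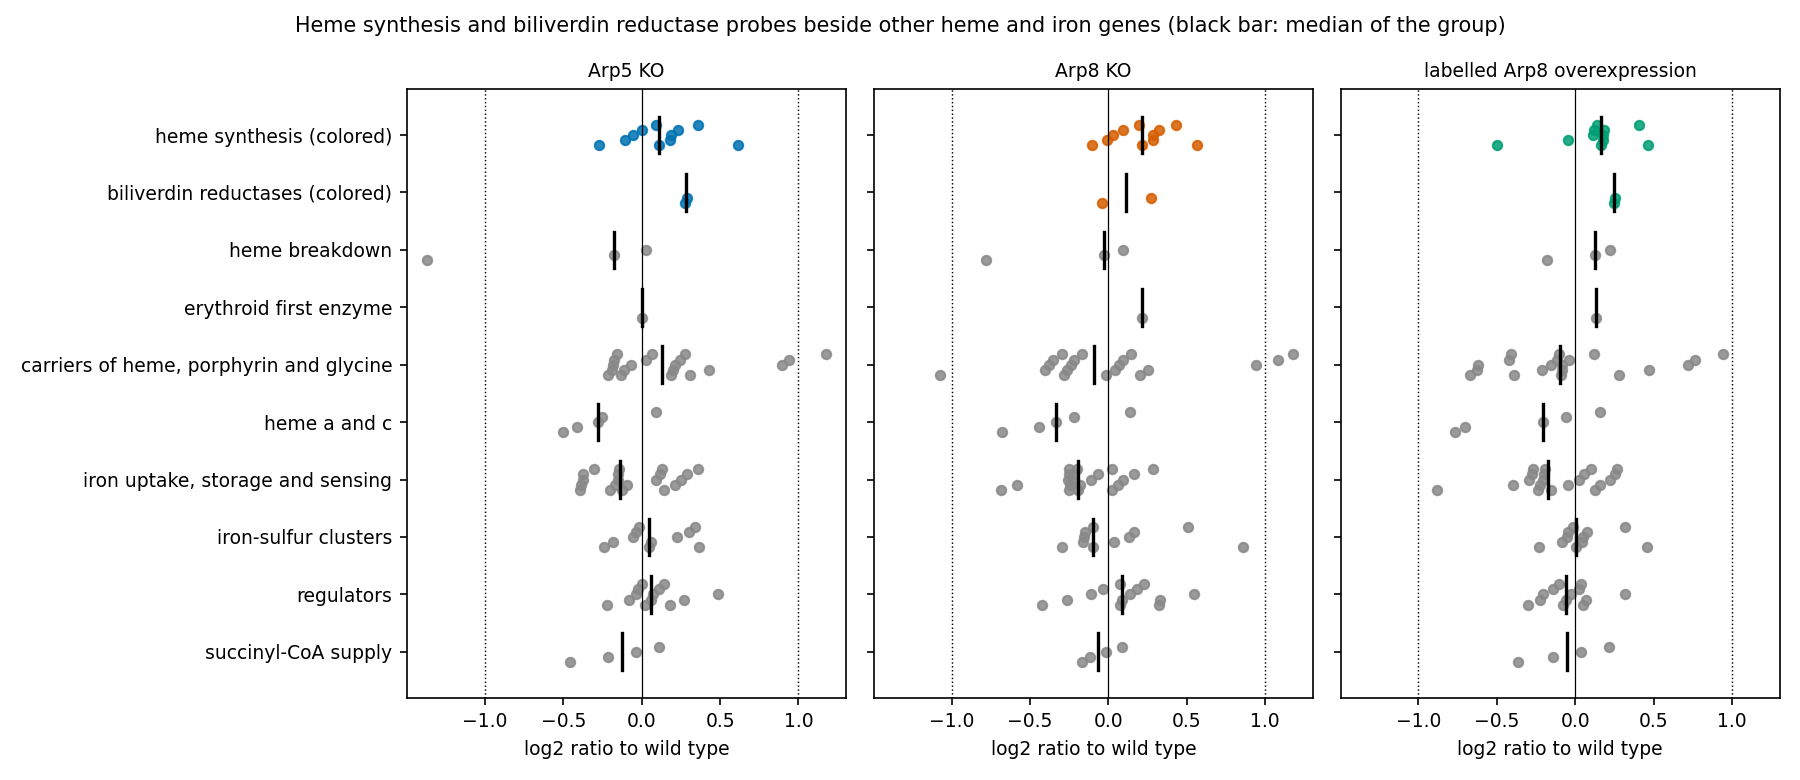
Log2 ratio to wild-type cells (horizontal axis) in Arp5 KO cells, Arp8 KO cells and on the labelled OE array, 1 dot per probe well above background on all arrays, grouped by role (rows). Colored dots are the heme synthesis and biliverdin reductase probes, gray dots are other heme and iron genes, and black bars are group medians. Dots outside the dotted 2-fold lines belong to gray groups alone, carriers and heme breakdown.

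Between heme synthesis and the biliverdin reductases stands heme oxygenase, and its gene *HMOX1* had mean signals of 99.7 units in the wild type, 38.0 in Arp5 KO, 58.7 in Arp8 KO and 118 on the labelled OE array over its 10 spots. Its ratios were -1.37, -0.78 and 0.22, and under other settings they were as small as -0.66, -0.43 and 0.13. *BLVRA* and *BLVRB*, which act on the product of heme oxygenase, had 0.27 and 0.29 in Arp5 KO cells, where *HMOX1* was below wild-type cells. In Arp8 KO they had -0.04 and 0.27, and on the labelled OE array 0.25 and 0.25. *HMOX2*, the constitutive heme oxygenase gene, had ratios of 0.03 and -0.18 in Arp5 KO and of 0.09 and -0.03 in Arp8 KO cells, where the values of 0.03 and -0.03 changed sign between settings. *ALAS2*, the red cell form of the first enzyme, had 1 probe on no array and 1 at 21.3, 21.0, 25.0 and 23.8 units, with a ratio of 0.21 in Arp8 KO cells that was as low as 0.09 under another setting.

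Of the remaining role groups, iron uptake, storage and sensing had medians of -0.14 in Arp5 KO, -0.20 in Arp8 KO cells and -0.17 on the labelled OE array over 20 probes. *TFRC*, the transferrin receptor gene, had -0.39, -0.69 and -0.40 over 10 spots, and *IREB2*, an iron regulatory protein gene, had -0.17, -0.58 and -0.88. Heme a and c synthesis had medians of -0.28, -0.33 and -0.20 over 5 probes, with -0.41, -0.68 and -0.71 for *COX15* probe A_24_P115700, -0.28, -0.44 and -0.20 for A_23_P202374 and -0.50, -0.33 and -0.77 for *HCCS* probe A_23_P436407. The other *HCCS* probe had 0.09, 0.14 and 0.16. *FDXR*, the ferredoxin reductase gene, had 0.34, 0.86 and 0.46, and *NFS1*, a cysteine desulfurase gene, had -0.24, 0.51 and -0.05, the last reaching 0.00 under another setting. Among regulators, *NR1D1*, whose product is a heme sensor, had 0.48, 0.54 and 0.32 with probe A_23_P420873 and 0.18, 0.32 and 0.04 with probe A_24_P250227, the last changing sign between settings. *NRF1* had 0.00, -0.42 and -0.03, the first and last changing sign between settings. *SUCLA2*, which encodes a subunit of a succinyl-CoA ligase, had -0.45, -0.17 and -0.37 with probe A_23_P117157 and -0.21, -0.02 and -0.14 with A_24_P181275, where the value of -0.02 changed sign between settings. *SUCLG2* had -0.03, -0.11 and 0.21, the first and second changing sign between settings. The 3 probes of the carrier gene *SLC46A1* differed in sign, with 0.43, -0.26 and 0.47 for A_23_P66698, 0.19, -0.38 and -0.16 for A_23_P335069 and 0.31, 0.07 and 0.28 for A_24_P159548. *PGRMC1* had -0.19, -0.40 and -0.08.

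Over the 4 arrays the dim *FECH* probe had the widest range of the 13. With median scaling or normexp background correction it did not, and *ALAD* probe A_23_P217114 then had ratios of 0.60 and 0.52 in Arp8 KO cells. The dim *FECH* probe was compared with 19259 probes of other genes after each was centered on its own mean. The closest by Euclidean distance over the 4 arrays were those of *SLIT1*, *ST20-AS1* and *CATSPER2*, at distances of 0.05, 0.05 and 0.06. *SLIT1* had ratios to wild-type cells of 0.56, 0.10 and 0.39, close to the 0.62, 0.09 and 0.40 of *FECH* probe A_32_P151933. In all, 10 of the 19259 lay within 0.1. A profile of 4 values says little of a gene, and no shared function follows from it.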

How the data were processed

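RNA of 4 Nalm-6 cell lines was measured on 1 Agilent array each. The authors deposited the output of Feature Extraction 10.5.1.1, whose processed signal is a background-subtracted intensity, and a table of intensity values equal to that signal times 0.847 (wild-type), 0.838 (Arp5 KO), 0.825 (Arp8 KO) and 0.807 (labelled Arp8 overexpression). How these factors were set is not stated, and the column medians were 127.5, 127.9, 122.5 and 119.1 units. Outlier spots were left out, log2 signals were taken relative to the 75th percentile of each array, and spots of a probe were averaged. A ratio was used where the brighter array was well above background, with the dimmer raised to the lowest such signal. Accessions were named with the GRCh38.p14 gene table, which matched 26222 of 41000 probes (64.0%). Normexp (limma 3.58.1, R 4.3.3, offset 50) used the median signal. Python 3.11.15, numpy 2.4.6, pandas 2.3.3 and matplotlib 3.10.9 did the rest, and calls were tested on simulated data. The members and lists were chosen with earlier results of these data known. From the list of other genes, genes were named from those beyond 2-fold from wild-type cells, and up to 2 more per role with the largest ratio in a KO cell line. The software error was added after the columns were seen.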

Additional observations from a re-analysis of the deposited data

How the results depend on the processing

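The median over the 13 probes kept its sign in all 5 comparisons under every alternative. In Arp5 KO over wild-type cells it was 0.18, and 0.14 with median scaling, 0.15 with the authors' table and 0.21 with normexp. In Arp8 KO over wild-type cells it was 0.22, and 0.25 both with median scaling and with 1 value per gene. On the labelled OE array it was 0.17, and 0.23 with median scaling, 0.14 with the percentile over probes detected on every array and 0.13 with the authors' table. In Arp5 KO over Arp8 KO cells it was -0.13, and -0.17 without scaling, -0.21 with median scaling, -0.082 with normexp and -0.095 with 1 value per gene. The alternatives named here, other than normexp and 1 value per gene, differ from the main scaling by a constant per array. They shift the ratios of all 13 probes in a comparison equally. With median scaling the median over all probes shifted too, by -0.04 in Arp5 KO and 0.04 in Arp8 KO over wild-type cells. The cause of the moves with normexp and with 1 value per gene was not tested. The number of probes beyond 2-fold was 0 under every setting. At 1.5-fold it was 1 in Arp5 KO over wild-type cells, but 0 with median scaling, quantile normalization, the authors' table and normexp, and median scaling added 1 in Arp8 KO over wild-type cells. Of the 65 single ratios, 43 moved by over 1 technical SD with median scaling, 33 with normexp, 24 with the authors' table and 12 or fewer otherwise. With normexp the share of all probes beyond 2-fold was 0.597% for Arp5 KO over wild-type cells, 1.15% for Arp8 KO and 1.25% for the labelled OE array, 0.546% for Arp8 KO cells over that array and 0.904% for Arp5 KO over Arp8 KO cells. No paired analysis was possible, with 1 array for each genotype.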
